A study of Mus musculus with 6 samples.

Results

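Accessible regions of the adult mouse hypothalamus carry running numbers (all_hpt_peak_1 and onward) in this ATAC-seq data set, and the regions described here are strongly open ones whose numbers follow each other without a gap. Members were chosen by their mean signal over all 6 libraries: at least 8 and under 64 CPM (adjusted counts divided by their library total) in every region of a row of 3 or more. This gave 3958 regions in 1114 runs, which is 1.69% of the 233801 regions of the table and 15.1% of the 26261 regions in that range of levels. The other 22303 regions of the range stood alone (16039) or in pairs (6264) and serve as the comparison. The libraries come from 3 WT mice (replicates 5, 33 and 56) and 3 mice labelled Het (replicates 19, 42 and 48), all 60 to 70 days old, in a study of the loss of MYT1L. Replicates 56 and 42 are the males, 1 per genotype. The labels give no allele, promoter or breeding background beyond WT and Het, so the limits of the Het mice as a model cannot be described further.

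In ATAC-seq the Tn5 transposase cuts and tags DNA that is not wrapped tightly in nucleosomes, so signal marks promoters, enhancers and other regulatory DNA. Such elements often lie close together along a chromosome, around genes that are active in a tissue or that need many inputs, and neighbouring elements often open together. MYT1L is a zinc finger factor of neurons that is known for repressing genes of other cell types. The hypothalamus is a mixed tissue of many neuron classes and glia, and in such bulk samples a smaller number of cells of a type and a weaker signal per cell cannot be told apart. Peak callers commonly number regions along the chromosomes, but the data used here do not state it for these numbers, so a run is a row of numbers and not a measured stretch of genome. Positions, genes and sequences of the regions, and marker genes that would check the tissue label, were not analysed here.

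The values are log2 CPM that the authors adjusted for unwanted variation, and 3 features of them bear on the comparisons. At 8 CPM a region stands for 200 to 204 adjusted counts per library, and the original read depth is unknown. The 75th percentile of all regions is the same in every library, which sets the zero point of any Het to WT ratio. Of the 4 directions in which 6 libraries can vary within 2 genotypes, 1 holds only 0.0577% of that variance, so it had been removed. A fit on genotype alone then counts 4 residual degrees of freedom where 3 are left, and the removed direction was therefore also entered as a covariate. Both fits are given side by side.

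Most runs were short. Of the 1114 runs, 745 held 3 regions, 234 held 4, 80 held 5 and 55 held 6 or more, up to 16. The median level of the members was 15.6 CPM (quartiles 10.97 and 24.6), against 12.5 CPM for regions standing alone and 14.4 CPM for pairs. It was 15.1 CPM in runs of 3 and 18.1 CPM in runs of 6 or more. These levels belong to the rule and are a description. The lowest members were all_hpt_peak_45963 and all_hpt_peak_109149, at 8.0024 and 8.0043 CPM, and the highest were all_hpt_peak_156823 and all_hpt_peak_190243, at 63.99 and 63.867 CPM. Just outside, the regions beside a run that came nearest to the limits were all_hpt_peak_85124 at 7.9926 CPM and all_hpt_peak_120096 at 64.246 CPM.

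Members of a run differed in level among themselves. The ratio of the highest to the lowest member was 2.45 in the median run (quartiles 1.71 and 3.49) and ran from 1.03 to 7.62. It was under 1.5 in 169 runs and over 4 in 187. In runs of 3 the median level was 15.1, 15.1 and 15.0 CPM at the first, middle and last position, with the ends below the middle by at most 0.1 CPM. In runs of 4 and of 5 the first position was the lowest: in runs of 4 the medians were 14.2, 15.6, 15.8 and 15.8 CPM by position, and in runs of 5 they were 16.2, 17.5, 17.7, 20.3 and 17.7 CPM. Most runs ended at weakly open regions: of the 2228 ends, 428 had a neighbour under 1 CPM, 1180 one of 1 to under 4 CPM and 602 one of 4 to under 8 CPM. A region of 64 CPM or more lay beside 17 runs, and 1 end had a number with no row.

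Runs were spread unevenly over the numbers. In blocks of 10000 numbers, the share of regions of 8 to under 64 CPM that lay in runs went from 7.96% in the first block to 22.6% in the block from 200001 to 210000. The latter held 349 members in 93 runs, and the first held 69 in 20. The blocks from 40001 and from 100001 stood out from those beside them, at 19.3% and 20.0%. The same blocks also held more regions of this range: 15.5% of all regions in the block from 200001, 13.9% and 12.8% in the blocks from 40001 and 100001, and 8.72% in the first.

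**Figure D1:**
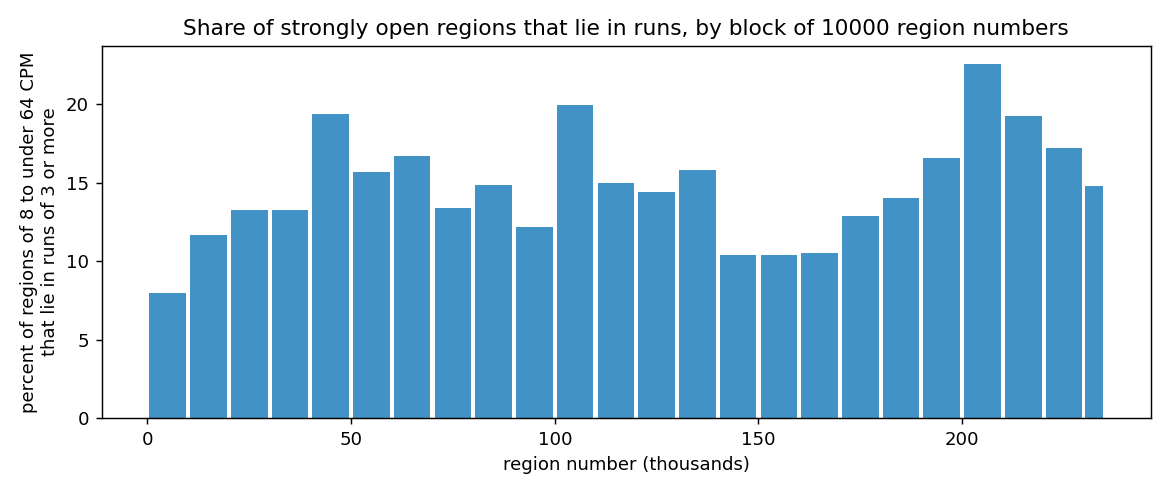
Percent of regions of 8 to under 64 CPM that lie in runs of 3 or more (y axis), for each block of 10000 region numbers (x axis in units of 1000 numbers, the last block being shorter). The bars run from 7.96% in the first block to 22.6% in the block from 200001.

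The longest run, 16 regions from all_hpt_peak_58288 to all_hpt_peak_58303, had member levels from 8.15 to 44.9 CPM. Its summed signal was 457, 447 and 437 CPM in WT replicates 5, 33 and 56 and 456, 454 and 446 CPM in Het replicates 19, 42 and 48. The genotypes overlapped in this sum (WT 447 ± 10.3, Het 452 ± 5.28, SD, n = 3), and 9 of the 16 regions had a higher mean in Het. The last region, all_hpt_peak_58303, had 13.1, 7.24 and 6.14 CPM in the WT libraries and 6.04, 8.05 and 8.32 CPM in the Het libraries, so WT replicate 5 alone lifted its mean over the limit of 8 CPM.

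The run of 12 regions from all_hpt_peak_192642 to all_hpt_peak_192653 summed to 258, 256 and 258 CPM in the WT libraries and 267, 272 and 259 CPM in the Het libraries. All 3 Het sums lay above the WT sums, by a ratio of the means of 1.03, while only 6 of the 12 regions had a higher mean in Het. The run of 11 regions from all_hpt_peak_218217 to all_hpt_peak_218227 summed to 251, 248 and 237 CPM in WT and 254, 247 and 247 CPM in Het. Here the genotypes overlapped and 8 of 11 regions had a higher mean in Het. Mean levels of the members ranged from 8.26 to 52.4 CPM in the run of 12 and from 8.91 to 49.4 CPM in the run of 11. Neighbouring regions were not always further apart than the libraries: all_hpt_peak_192648 and all_hpt_peak_192649 had means of 17.1 and 17.9 CPM, while the libraries of the former went from 14.5 to 19.4 CPM.

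**Figure D2:**
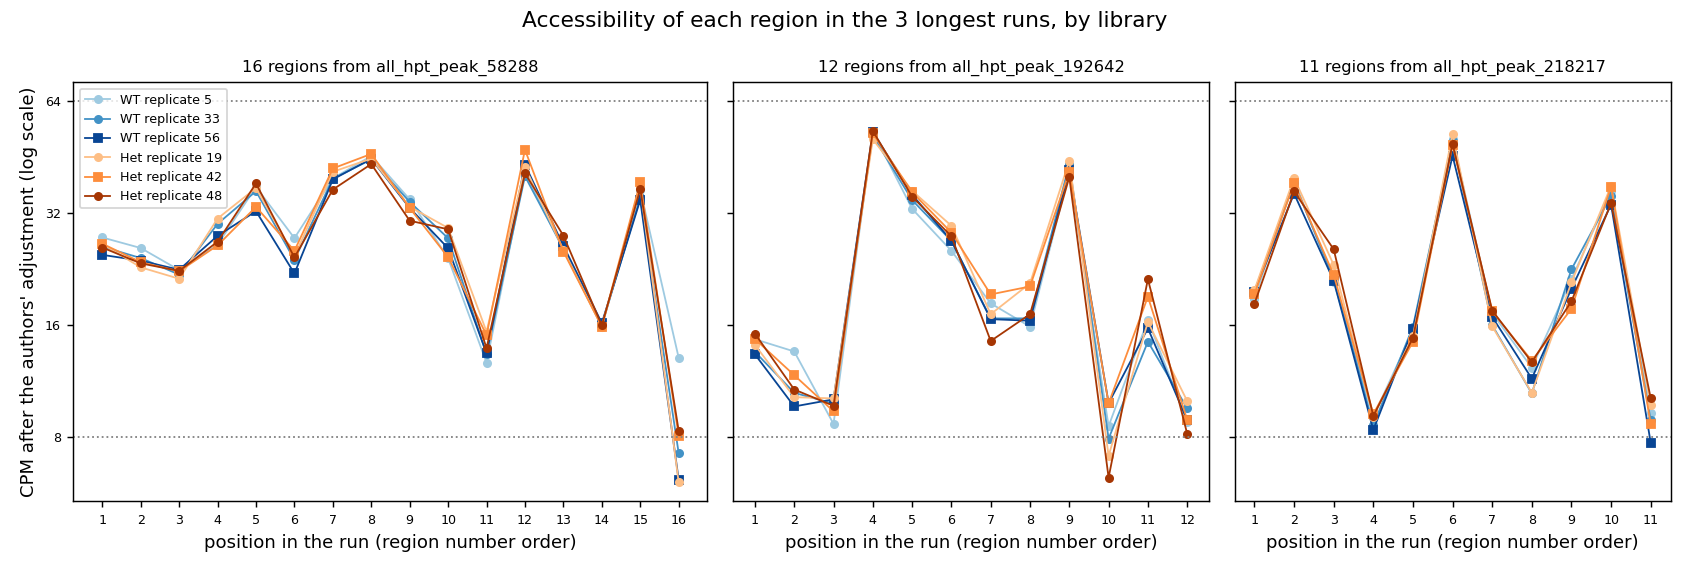
CPM after the authors' adjustment (y axis, log scale) of each region in the 3 longest runs (x axis, position in number order), with 1 line per library (blue WT, orange to brown Het, squares males). The 6 lines of a run follow a like profile, and dotted lines mark the limits of 8 and 64 CPM.

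The first comparison asked whether the members differ in accessibility between Het and WT. With limma fitted on all 156624 regions of at least 1 CPM with genotype alone, 0 members were called higher and 0 lower in Het at a Benjamini-Hochberg adjusted p under 0.05 (background over all tested regions 0% in each direction). The smallest limma adjusted p among the members was 0.315. The changes were small: 90% of the members lay between -0.15 and 0.18 on the log2(CPM + 0.5) scale and 0 lay beyond 1.5-fold. The median standard error of a change was 0.07 in this fit and 0.10 with the removed direction as a covariate. In each member called with that covariate, described below, the order was reversed, for example 0.146 and 0.087 at all_hpt_peak_166119. The variance prior counted 7.15 degrees of freedom on genotype alone and 57.1 with the covariate. With the larger number, the spread between mice in a single region weighs less in its standard error.

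More members tended towards Het than towards WT. At an unadjusted p under 0.05 (limma, genotype alone) 253 members, or 6.39%, were higher in Het, where the background was 5.87%, and 128, or 3.23%, were lower, where it was 5.31%. All 3 Het libraries lay above all 3 WT libraries in 412 members, or 10.4%, against 8.48% of all tested regions. They lay below in 229 members, or 5.79%, against 8.14%. The shares of regions standing alone or in pairs were 8.92% above and 6.40% below. The excess above is thus small against the background, and the deficit below is shared by the other regions of the same levels.

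The mean of the Het libraries was the higher one in 2348 members, or 59.3%, with a median log2 change of 0.02. The shares were 49.8% over all tested regions and 54.5% over regions of 8 to under 64 CPM outside runs. The share went up with the length of the run: 54.0% for regions alone, 55.8% in pairs, 57.7% in runs of 3, 59.8% in runs of 4, 61.3% in runs of 5 and 65.6% in runs of 6 or more. Level also goes up with length, and its part in the order by length was not tested. Members and others split by level gave 57.4% against 53.8% at 8 to 16 CPM, 61.4% against 55.7% at 16 to 32 CPM and 61.1% against 56.02% at 32 to 64 CPM. The lean towards Het depends on the scaling. With quantile normalization 52.8% of the members were higher in Het, and with an equal median over the regions of 8 to 64 CPM 50.5%. The share in runs of 6 or more was 58.4% and 54.8% under these scalings, and that of regions alone 47.95% and 45.4%. These scalings moved the changes of all lengths by nearly the same amount. With the equal median, the median change went from 0.0095 to -0.0110 for regions alone and from 0.0268 to 0.0062 in runs of 6 or more. They could thus hardly alter the order by length and do not test it.

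Differences between members and the rest were also taken library by library. On the log2 scale, the mean of the members stood above that of the regions alone or in pairs by 0.144, 0.143 and 0.156 in WT replicates 5, 33 and 56 and by 0.152, 0.167 and 0.154 in Het replicates 19, 42 and 48. WT replicate 56 lay above 2 of the Het libraries, so the genotypes overlapped. The runs of 6 or more stood above the regions alone by 0.318, 0.311 and 0.315 in WT and by 0.336, 0.348 and 0.334 in Het, and here the genotypes did not overlap. These differences are taken within a library, so scaling by a constant hardly enters them. The members held 7.76%, 7.72% and 7.66% of all CPM in the WT libraries and 7.83%, 7.87% and 7.79% in the Het libraries, without overlap between the genotypes. That share was not computed for the regions outside runs. The mean log2 level of the members did overlap, at 4.132 in WT replicate 5 and 4.131 in Het replicate 48. In 7 of the 9 pairings of a Het with a WT library, runs held a larger share of regions that were higher in Het than the other regions did. The gap over the 9 pairings went from -0.54 to 6.998 percentage points. No p-value was computed for these values, as the members were chosen with earlier results known.

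**Figure D3:**
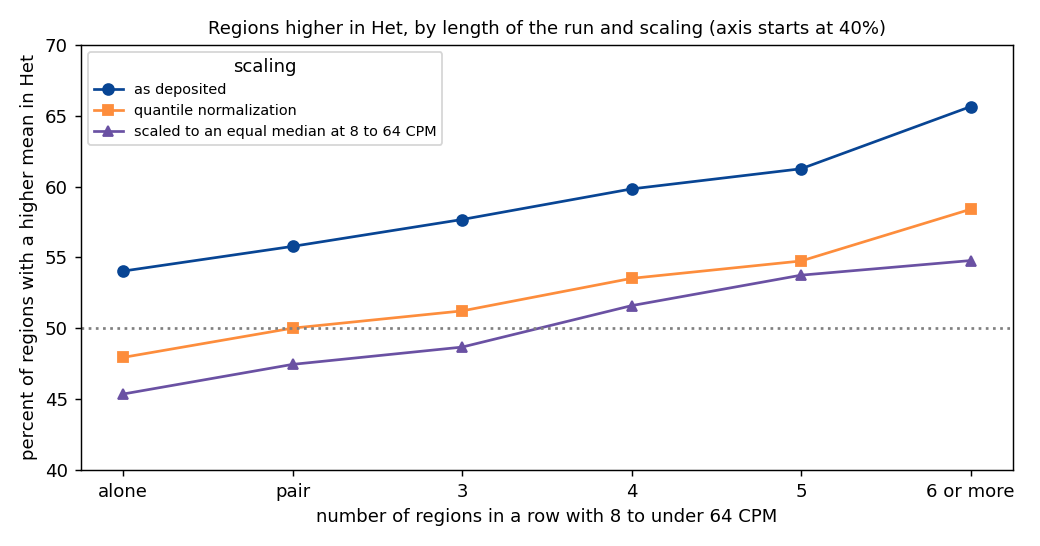
Percent of regions with a higher mean in Het (y axis, starting at 40%) by the number of regions in a row (x axis) under 3 scalings. Each line climbs from regions alone to runs of 6 or more, from 54.0% to 65.6% as deposited, while the place of the lines against 50% moves with the scaling.

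The members with the smallest p in the fit on genotype alone did not pass the threshold (limma adjusted p = 0.315 for all 8). The first in the direction of Het was all_hpt_peak_149362, with 23.4, 22.9 and 19.5 CPM in WT and 32.8, 27.9 and 36.2 CPM in Het, a log2 change of 0.54 ± 0.09 (SE). It closes a run of 3 in which all_hpt_peak_149361 had 54.1, 53.9 and 54.2 CPM in WT and 50.6, 50.4 and 53.0 CPM in Het. Direct neighbours in number thus leaned in opposite directions. Next came all_hpt_peak_139616 (0.45 ± 0.08), all_hpt_peak_217195 (0.44 ± 0.09) and all_hpt_peak_14824 (0.41 ± 0.08).

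In the direction of WT, all_hpt_peak_86784 had 15.1, 15.5 and 15.5 CPM in WT and 12.4, 12.1 and 12.3 CPM in Het, a log2 change of -0.32 ± 0.06. The other 3 were all_hpt_peak_54687 (-0.35 ± 0.08), all_hpt_peak_165227 (-0.50 ± 0.12) and all_hpt_peak_102123 (-0.28 ± 0.07). In each of the 8 regions the genotypes did not overlap, against 8.48% (Het above) and 8.14% (Het below) of all tested regions. This follows largely from picking them by the smallest p. With the removed direction as a covariate, 2 of the 8 were called, all_hpt_peak_149362 (limma adjusted p = 0.000757) and all_hpt_peak_139616 (limma adjusted p = 0.00283). The limma adjusted p of the other 6 in that fit lay between 0.0843 and 0.49.

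With the removed direction as a covariate, 14 members were called higher and 1 lower in Het at a limma adjusted p under 0.05. That is 0.354% and 0.0253% of the members, against a background of 0.046% higher (72 regions) and 0.00958% lower (15 regions). Among regions alone or in pairs at the same range of levels 35, or 0.157%, were called higher. Strong regions have smaller standard errors, and the 14 had a median of 30.1 CPM. At 8 to 16 CPM 0.098% of members and 0.065% of the others were called higher. At 16 to 32 CPM the shares were 0.517% and 0.289%, and at 32 to 64 CPM 0.888% and 0.347%. The shares of members rest on 2, 7 and 5 regions, and the differences were not tested. The changes were 1.33-fold to 1.49-fold.

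The 14 calls fell in 9 runs, and 9 of them shared a run with another call. The run from all_hpt_peak_166116 to all_hpt_peak_166119 held 3 calls, and the runs from all_hpt_peak_123010, all_hpt_peak_139614 and all_hpt_peak_227053 held 2 each. The 22 other members of the 9 runs had a median log2 change of 0.21, from -0.10 to 0.48, and 15 of them had a higher mean in Het. Just outside these runs, 8 of 14 tested neighbours had a higher mean in Het.

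The libraries formed the same picture in nearly all of the 14. WT replicate 56 had the lowest value in 14 of 14, and the highest value was in Het replicate 48 in 8 and in Het replicate 19 in 6. Relative to a region's own mean, the average over the 14 was -0.03, -0.17 and -0.55 in WT replicates 5, 33 and 56 and 0.32, 0.05 and 0.38 in Het replicates 19, 42 and 48. The other 22 members of these runs showed the same order in WT and weaker values, at 0.00, -0.05 and -0.21 in WT and 0.13, 0.01 and 0.12 in Het. Over all members the averages stayed between -0.03 and 0.02. All 3 Het libraries lay above all 3 WT libraries in 10 of the 14, against 8.48% of all tested regions. The 14 were called on this same difference, so the count is a description.

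The calls depend on single mice and on the variance model. Without Het replicate 48 the count of 14 became 0, without WT replicate 56 it became 1, without Het replicate 19 it became 2 and without WT replicate 33 it became 8. It was 19 without WT replicate 5, 17 without Het replicate 42 and 0 when the variance prior was fitted without its dependence on signal level. Without the libraries named, 0 (Het replicate 48), 1 (WT replicate 56), 2 (Het replicate 19) and 7 (WT replicate 33) of the 14 themselves were still called.

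All 4 regions of the run from all_hpt_peak_166116 had higher means in Het. They summed to 114, 107 and 76.1 CPM in WT and 157, 118 and 151 CPM in Het (99.0 ± 20.1 and 142 ± 21.4, SD, n = 3), a ratio of 1.44. The strongest region, all_hpt_peak_166119, had 49.0, 47.0 and 32.4 CPM in WT and 71.2, 51.05 and 64.7 CPM in Het, a log2 change of 0.55 ± 0.09 (SE with the covariate; limma adjusted p = 0.000785). On genotype alone the SE of this region was 0.15. Each Het library lay above each WT library there, and Het replicate 42 by the least. The called regions all_hpt_peak_166116 and all_hpt_peak_166118 had log2 changes of 0.50 ± 0.08 and 0.58 ± 0.12 (limma adjusted p = 0.0012 and 0.0341). The weakest region, all_hpt_peak_166117 at 9.81 CPM, had a change of 0.44 ± 0.13 and did not pass (limma adjusted p = 0.394). Called regions went on past the upper limit of the rule: all_hpt_peak_166120 and all_hpt_peak_166121, at 77.6 and 77.5 CPM, had changes of 0.41 and 0.44 and were called as well (limma adjusted p = 0.00473 and 0.00207). On the other side, all_hpt_peak_166115 was at 0.79 CPM and was not tested.

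The run of 6 regions from all_hpt_peak_123010 to all_hpt_peak_123015 was called at both ends. Its sum was 154, 134 and 105 CPM in WT and 176, 150 and 195 CPM in Het, so the highest WT library lay above the lowest Het library. The first region had 51.5, 42.1 and 32.3 CPM in WT and 57.0, 50.9 and 63.4 CPM in Het, a change of 0.46 ± 0.08 (limma adjusted p = 0.0043). The last, all_hpt_peak_123015, had a change of 0.44 ± 0.09 (limma adjusted p = 0.0179). The 4 regions between them had changes of 0.31 to 0.48 and did not pass. All 6 thus leaned towards Het by like amounts, with the strongest 2 past the threshold.

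The run from all_hpt_peak_139614 to all_hpt_peak_139616 summed to 63.1, 65.0 and 55.1 CPM in WT and 88.9, 72.6 and 88.8 CPM in Het, without overlap and at a ratio of 1.37. Its called regions were all_hpt_peak_139615 (0.49 ± 0.09, limma adjusted p = 0.00256) and all_hpt_peak_139616, named above. The run from all_hpt_peak_227053 to all_hpt_peak_227055 was the only one of 1114 in which the genotypes did not overlap in any member. Its first region had 26.4, 23.1 and 15.5 CPM in WT and 35.5, 26.7 and 32.8 CPM in Het, a change of 0.56 ± 0.10 (limma adjusted p = 0.0043), and all_hpt_peak_227055 had 47.3, 37.9 and 31.9 CPM in WT and 48.5, 47.5 and 58.4 CPM in Het, a change of 0.41 ± 0.08 (limma adjusted p = 0.0153). The gap between the closest WT and Het libraries was narrow in both, 26.4 to 26.7 CPM and 47.3 to 47.5 CPM. No run had all members below WT without overlap. Among single members 10.4% lay above WT and 5.79% below it without overlap. No background was computed for whole runs, so nothing is read from these counts of runs.

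In the other runs a single region passed the threshold. In the run from all_hpt_peak_200921 the first region had 10.6, 9.57 and 7.18 CPM in WT and 14.4, 11.9 and 13.8 CPM in Het (0.54 ± 0.12, limma adjusted p = 0.0353), while all_hpt_peak_200922 and all_hpt_peak_200923 had changes of -0.02 each. In the run of 7 from all_hpt_peak_114471, the called region all_hpt_peak_114473 had a change of 0.44 ± 0.09 (limma adjusted p = 0.0267), and the strongest regions, all_hpt_peak_114474 and all_hpt_peak_114475 at 44.3 and 44.6 CPM, had changes of -0.04 and 0.05. The weaker all_hpt_peak_114472 and all_hpt_peak_114476 had changes of 0.43 and 0.33 that did not pass (limma adjusted p = 0.326 and 0.478). At the ends of the run, all_hpt_peak_114471 and all_hpt_peak_114477 had changes of 0.09 and -0.03. The called regions all_hpt_peak_3042 and all_hpt_peak_7328 had changes of 0.55 ± 0.10 and 0.49 ± 0.10 (limma adjusted p = 0.00388 and 0.0179). On either side of all_hpt_peak_3042, all_hpt_peak_3041 and all_hpt_peak_3043 had changes of -0.10 and 0.27 that did not pass (limma adjusted p = 0.906 and 0.667). The last region of that run, all_hpt_peak_3044, had a change of 0.44 ± 0.10 and missed the threshold (limma adjusted p = 0.0572). So a run could hold both regions that leaned to Het and regions that did not.

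The only member called lower in Het was all_hpt_peak_221703, with 28.9, 40.9 and 47.6 CPM in WT and 29.1, 25.2 and 26.5 CPM in Het, a log2 change of -0.50 ± 0.09 (limma adjusted p = 0.00446). WT replicate 5 was lower than Het replicate 19, so the genotypes overlapped, and WT replicates 33 and 56 stood above all 3 Het libraries. The other 3 regions of its run had changes of -0.05 to -0.02. This call also depends on single mice. It was lost without WT replicate 33 or 56 (limma adjusted p = 0.754 and 0.605) and without Het replicate 42 or 48 (limma adjusted p = 0.208 and 0.216). It was kept without WT replicate 5 or Het replicate 19.

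**Figure D4:**
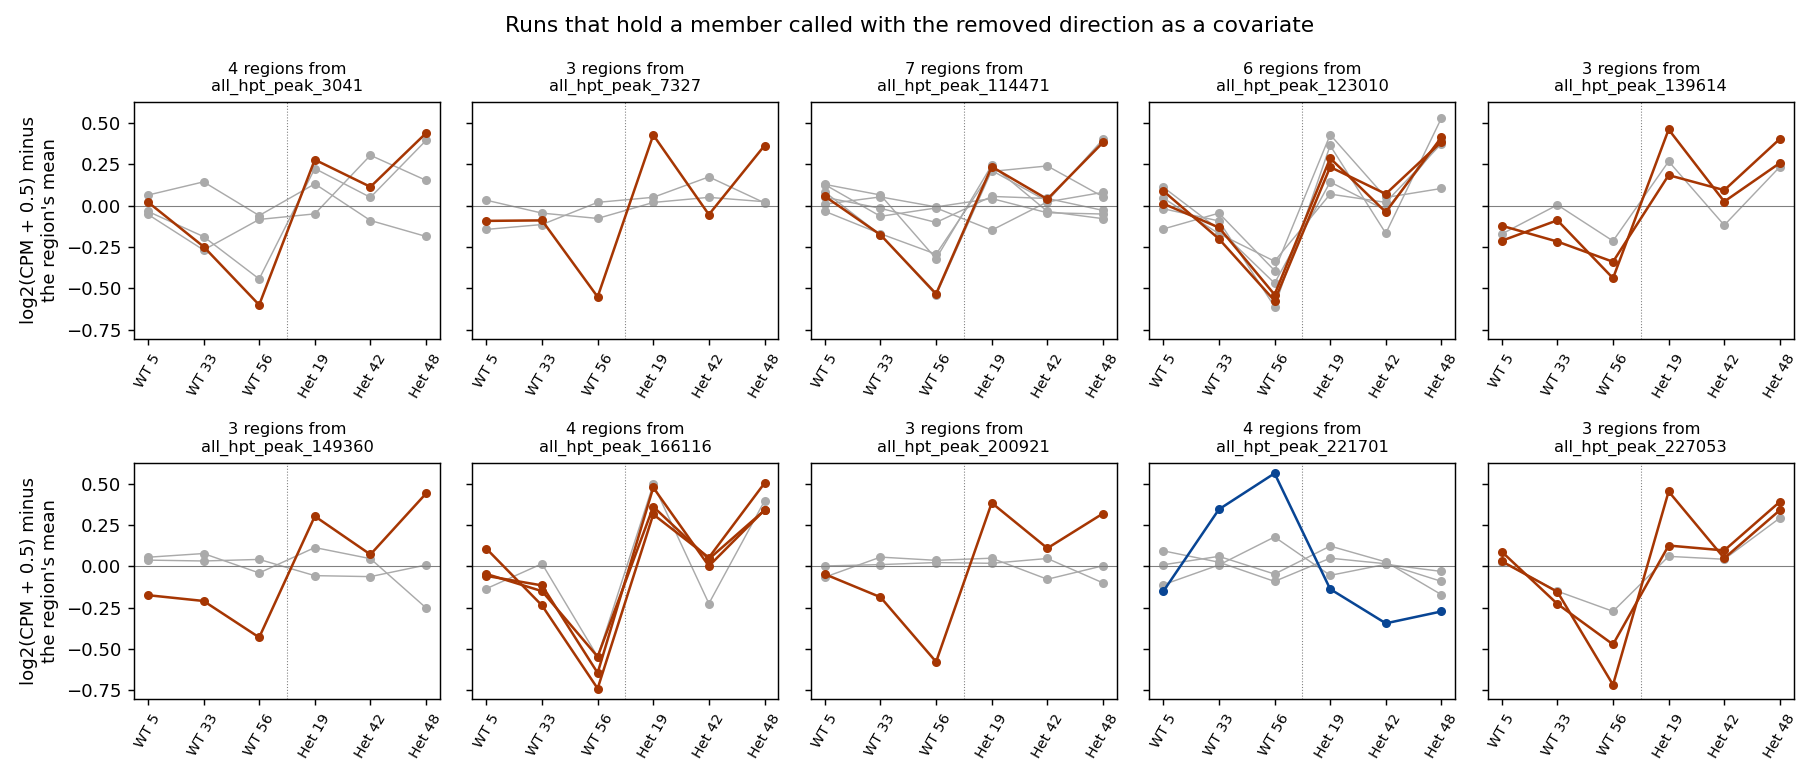
Deviation of log2(CPM + 0.5) from the region's own mean (y axis) in each library (x axis, WT left and Het right of the dotted line) for the 10 runs with a called member. Each line is 1 region, brown where called higher, blue where called lower and grey where not called, and WT 56 is the low point of all 14 brown lines; lines join libraries only to make a region visible.

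Regions of a run leaned together to a modest degree. Over the 2844 pairs of direct neighbours within runs, Pearson's r of the Het minus WT change was 0.146, and 53.9% of the pairs had the same sign. For neighbours in pairs r was 0.118 (3132 pairs), and for all tested regions with consecutive numbers 0.042 (110445 pairs). At a distance of 2 numbers r was 0.114 within runs (1730 pairs) and 0.022 for regions of 8 to under 64 CPM that a region of another level, or a missing number, kept apart (3226 pairs). The pairs share the 6 libraries and many share a region, and stronger regions have less noise, so these coefficients are descriptions and carry no test. A few runs weigh heavily in them: without the 10 runs that held a called member, r between direct neighbours was 0.077 (2814 pairs). Leaving out 1 library gave 0.112 (without Het replicate 48) to 0.181 (without WT replicate 5) over all runs.

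Deviations of a library from the mean of its genotype were also alike between neighbours, with an r of 0.163 within runs at distance 1 and 0.149 at distance 2, against 0.133 at distance 2 for regions of the same levels that were not in one run and 0.040 for all tested direct neighbours. Regions in a run and regions of like level nearby thus gave similar values for these deviations. For the male minus female change, r within runs was 0.208 at distance 1 and 0.208 at distance 2. It was 0.165 at distance 2 for regions of the same levels not in one run, and 0.037 for all tested direct neighbours. Within runs, neighbours were thus no more alike in the Het minus WT change than in this other contrast of the same libraries.

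**Figure D5:**
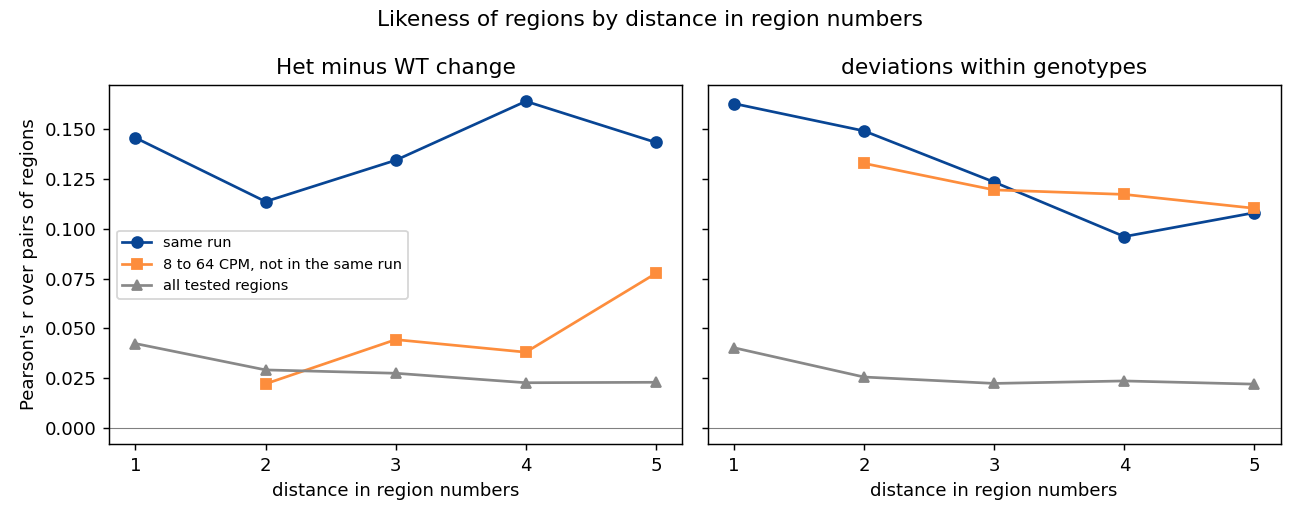
Pearson's r over pairs of regions (y axis) by distance in region numbers (x axis), for the Het minus WT change (left) and for deviations of libraries within genotypes (right). On the left the pairs of the same run lie at 0.114 to 0.164 and pairs of like level outside one run at 0.022 to 0.078, and on the right both lie at 0.096 to 0.163.

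In runs of 3, all regions had the same sign of change in 210 of 745 (28.2%): 154 all higher in Het and 56 all lower. Among 80636 windows of 3 consecutive tested numbers, 27.0% were on one side, 14.7% all higher and 12.2% all lower. The share on one side was thus close to that of all regions, and its directions were unequal, 20.7% all higher and 7.52% all lower. Single regions in these runs already leaned this way, with 57.7% higher in Het. That lean depends on the scaling, and was 48.7% with an equal median over the regions of 8 to 64 CPM. Whether the unequal directions go beyond the lean of single regions was not tested. In runs of 4 the share on one side was 20.1%, and among 55 runs of 6 or more 5 had all regions higher in Het and 0 all lower. The more regions a run holds, the less often all share a sign, whatever their likeness. No background was computed for windows of these lengths, so nothing is read from these values.

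At least 3 regions without overlap between the genotypes stood in 5 runs in the direction of Het and in 1 in the direction of WT, a set picked out after its values were seen. Among single regions 8.48% (Het above) and 8.14% (Het below) of all tested ones do not overlap, and no background was computed for whole runs, so nothing is read from these counts. Beyond the runs from all_hpt_peak_3041 and all_hpt_peak_227053, these were the runs from all_hpt_peak_19137, all_hpt_peak_91003 and all_hpt_peak_104936, with small steps. In the run of 7 from all_hpt_peak_91003, for example, all_hpt_peak_91008 had 17.8, 17.8 and 17.7 CPM in WT and 20.4, 20.498 and 19.03 CPM in Het. The run in the direction of WT started at all_hpt_peak_118506, where all_hpt_peak_118508 had 21.2, 20.7 and 23.5 CPM in WT and 17.4, 19.8 and 19.7 CPM in Het. None of the regions in these last 4 runs passed the test in either fit.

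A second comparison set the 2 males against the 4 females with genotype in the model. Among the members 0 were higher and 0 lower in males at an adjusted p under 0.05 (limma, background 0% in each direction, smallest adjusted p = 0.296). At an unadjusted p under 0.05 there were 525 members, or 13.3%, which is the share of all tested regions as well. With the removed direction as a covariate, 9 of the 3958 members were lower in males and 0 higher. The background was 41 of the 156624 tested regions (0.0262%) lower and 9 (0.00575%) higher. This fit has 2 residual degrees of freedom. Its share among regions alone or in pairs is not given, so level is not accounted for. Libraries were left out only in the sex fit without the covariate, so the 9 calls were not checked that way. Of the 9, 6 belong to the 14 regions with higher signal in Het in the matching fit. Both contrasts use the same 6 libraries, and WT replicate 56, the lowest in those 6 regions, is a male.

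The sex calls clustered in runs too. In the run from all_hpt_peak_166116, 3 regions were called lower in males, and 3 in the run from all_hpt_peak_123010. The largest change was at all_hpt_peak_123013, -0.59 ± 0.13 (limma adjusted p = 0.0455), with 5.35 CPM in the WT male and 7.46 CPM in the Het male against 7.88 to 12.4 CPM in the 4 females. A fit with an interaction called 0 members for a Het minus WT change that differs between the sexes (limma, background 0%, smallest adjusted p = 0.9999), with 73 members, or 1.84%, at an unadjusted p under 0.05 against 2.23% of all tested regions. With the removed direction as a covariate it called 5 members, or 0.126%, against a background of 0.0268% (42 regions), in a fit with 1 residual degree of freedom and 1 male per genotype. The 5 were all_hpt_peak_221703, all_hpt_peak_229744 and the 3 regions of the run from all_hpt_peak_234665.

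In the adjusted values, mice of one genotype differed little in most members. The SDs here count 4 residual degrees of freedom where the adjustment left 3. They thus understate the spread between mice, in members and other regions alike. The median SD within genotypes was 0.085 on the log2 scale, with 90% of members between 0.030 and 0.183, against a median of 0.092 for regions alone or in pairs and 0.152 for all tested regions. An SD over 0.3 was found in 12 members, and WT replicate 56 had the lowest value in 8 of these. The run with the widest spread, picked after its values were seen, was that from all_hpt_peak_234665 to all_hpt_peak_234667, with a median SD of 0.44. Its middle region had 15.7, 9.21 and 5.07 CPM in WT and 13.2, 13.2 and 7.33 CPM in Het, and its last had 45.5, 30.6 and 20.1 CPM in WT and 29.3, 26.7 and 30.7 CPM in Het. WT replicate 5 was the highest and WT replicate 56 the lowest in all 3 regions, so the mice of 1 genotype lay further apart than the genotypes. The run next in spread was that from all_hpt_peak_166116, described above. In the third, all_hpt_peak_36167 to all_hpt_peak_36169, the order of the WT mice was the opposite: the last region had 29.2, 38.1 and 51.7 CPM in WT and 31.0, 33.5 and 31.1 CPM in Het.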

How the data were processed

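ATAC-seq was measured in 6 hypothalamus libraries. The authors deposited log2 CPM values after RUVr, per the name of the table, and the submitters' processing notes name mm10, Trimmomatic, Bowtie2, STAR and HTSeq without versions or roles. For the peak caller, its threshold and any transposase shift, the sources used here name nothing. Columns were matched to samples by their descriptions. The lowest value, -3.65, stands for 0 and was removed after back-transformation, after which the low values were whole steps (within 0.1 of a step) in 100% of cases. These steps are adjusted counts, and no count test was run on them.

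Runs were formed from region numbers and mean CPM. Differences were fitted with limma 3.58.1 (R 4.3.3) on log2(CPM + 0.5) over all 156624 regions whose mean reached 1 CPM, with an intensity-dependent variance prior, and p-values were adjusted by Benjamini-Hochberg across all of them. Tests were two-sided. The 3 mice of a genotype are biological replicates per the series' design text. Self-tests on simulated data were run for both fits. They drew every region with the same dispersion, so they do not check calls that depend on a spread differing between regions. Named were the 3 longest runs, the 4 members of smallest p per direction, runs with no overlap in any member and members past the threshold in any fit (the 5 largest changes per direction by rule; all 15 are named or counted here, which goes beyond it). The members, lists and tests were chosen with earlier results of these data known.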

Additional observations from a re-analysis of the deposited data

How the results depend on the processing

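Scaling by totals and by the median of the 8 to 64 CPM regions, and leaving libraries out of the sex contrast, were chosen after seeing the data. On genotype alone, the count of 0 members higher and 0 lower in Het held under other pseudocounts, filters and scalings, with sex as a covariate and without a variance trend. It became 15 higher and 1 lower with the residual degrees of freedom lowered by 1, which is the number the covariate also leaves. Fits on 5 libraries gave 0 to 10 higher (10 without WT replicate 33) and 0 to 1 lower (1 without WT replicate 5).

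With the removed direction as a covariate, the 14 higher and 1 lower became 0 and 0 without a variance trend, 7 higher in runs of 4 or more and 9 higher with a limit of 10 CPM, where fewer regions are members (1723 and 2418). The 1 lower became 2 with sex added. With any one library dropped there were 0 to 19 higher and 0 to 7 lower (7 without WT replicate 5), of which 0 to 15 were among the 15 calls; these fits keep 2 residual degrees of freedom.

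The share of members higher in Het, 59.3%, was 52.8% with quantile normalization, 50.5% with an equal median at 8 to 64 CPM, 58.3% with equal totals and 55.7% to 61.6% with 1 library left out. The share of runs of 3 on one side, 28.2%, was 25.9% with an equal median at 8 to 64 CPM and 28.1% to 32.3% with 1 library left out. For runs of 4 it was 20.1%, which is not comparable, as 4 regions share a sign less often than 3. The count of 0 members differing between the sexes became 9 with the covariate. Without the covariate it was 0 to 13 with 1 library left out (13 without WT replicate 33, 2 without Het replicate 19). The interaction count of 0 became 5 with the covariate (42 of all tested regions), a fit with 1 residual degree of freedom. Where no construction is named, the cause was not tested. Alternatives were run for the changes of the 8 members of smallest p and the 15 called with the covariate, and none of these reversed; the other named changes were not recomputed. No paired analysis was possible because WT and Het share no replicate number.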
